A study of Homo sapiens with 18 samples.

Results

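The genes that remove N6-methyladenosine (m6A) from RNA and the genes whose proteins bind it were examined in a breast cancer progression series. These were the erasers FTO and ALKBH5, the YTH readers YTHDF1, YTHDF2, YTHDF3, YTHDC1 and YTHDC2, and the IGF2BP readers IGF2BP1, IGF2BP2 and IGF2BP3. They were chosen by symbol, and all 10 were found, with 1 row each, in a table of 35933 genes with values in 18 libraries. In each comparison 9 of the 10 passed the filter for testing, a mean of at least 10 normalized counts. IGF2BP1 did not pass in any of them.

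The libraries formed 6 groups of 3 replicates, named a, b and c. MCF10A is an immortalized, non-tumorigenic human breast epithelial line, MCF10AT1 was made from it with a mutated HRas, and MCF10CA1H was obtained from MCF10AT1 by passage as xenografts in mice. In each line, 1 group carried a negative control CRISPR construct and 1 group was labelled as a METTL3 knockdown by CRISPR with a guide against exon 1. METTL3 is the catalytic subunit of the main m6A writer. Both arms received Cas9, a guide and mCherry by transfection, and cells were sorted and grown from single cells. Each group was therefore 1 line, and its replicates do not carry differences between clones, so p-values measure only the spread between these libraries. The levels are bulk values, in which fewer cells with a transcript and less of it per cell cannot be told apart.

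Normalized counts summed to between 21347352 and 31681834 per library, and the read depth behind them is unknown. METTL3 RNA did not follow the labels in every line. Its mean in MCF10A was 632.5 in controls and 809.9 in METTL3 CRISPR libraries, and in MCF10AT1 929.9 and 823.3, with no call (log2 fold change 0.33 and -0.17). In MCF10CA1H it fell from 1135 to 804.1 (log2 fold change -0.49, SE 0.12, limma adjusted p 0.0234). An edit in exon 1 need not lower the RNA, so these values do not check the labels. By Western blot the study found less METTL3 protein in knockdown clones of each line. By real-time PCR it reported a smaller decrease of METTL3 mRNA, which the MCF10A means here do not show. All lines are labelled epithelial. The summed level of 10 epithelial markers was between 34712 and 59012 in the MCF10AT1 METTL3 CRISPR libraries, below the 115055 to 165592 of their controls. Their summed level of 10 mesenchymal markers was between 119037 and 207765, above the 3785 to 5132 of the controls. VIM and FN1 made up most of it, with means of 65860 and 85440 against 3922 and 72.47 in the controls. COL1A1 and PDGFRB had lower means than in the controls (81.84 against 117.1 and 19.04 against 21.82), and COL1A2 and PDGFRA were under 10 in both groups. Limma called 5 of the 8 tested mesenchymal markers higher and 0 lower, beside 13.0% of all tested genes. CDH1, EPCAM and ESRP1, which define epithelial cells, had means of 40.85, 106.6 and 9.46 in the METTL3 CRISPR group against 3906, 3785 and 2302, and KRT5, KRT14 and KRT17 also fell. The keratins KRT8 and KRT18 had means of 14960 and 23180 against 20060 and 33630 in MCF10AT1 controls and 5261 and 12990 in MCF10A controls, LAMB3 was at 7011 against 14030, and TP63 was at 559.1 against 357.3, none of them called. In that group limma called 6 of the 10 epithelial markers lower and 0 higher, beside 13.0% of all tested genes called, and TP63 alone had a higher mean. The part of this shift in any comparison with MCF10AT1 below was not tested. Endothelial and leukocyte lists of 4 genes each, 3 of the latter in the table, had sums of at most 863 and 2342. PECAM1 and CD14 made up nearly all of these highest sums, at 849 and 2342. PTPRC, the general leukocyte gene, had at most 5.3. CD14 ran from 1745 to 2342 in MCF10AT1 METTL3 CRISPR libraries, above their controls (517 to 1378), without a call (log2 1.31). Limma called CD14 lower in MCF10CA1H METTL3 CRISPR libraries (-1.14), while its fall in MCF10A (-1.45) was not called. Controls of MCF10AT1 and MCF10CA1H were called higher in CD14 than MCF10A controls (2.34 and 1.98).

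In GENCODE 44 on GRCh38, FTO lies on the forward strand at chr16:53701692-54158512 and ALKBH5 on the forward strand at chr17:18183078-18209954. The YTH readers lie apart, YTHDF1 at chr20:63195429-63216139, YTHDF2 at chr1:28736621-28769775, YTHDF3 at chr8:63168553-63212786, YTHDC1 at chr4:68310387-68350090 and YTHDC2 at chr5:113513694-113595285. IGF2BP1 lies at chr17:48997385-49056145, IGF2BP2 at chr3:185643130-185825042 and IGF2BP3 at chr7:23310209-23470491. A value covers all annotated transcripts of a gene. Annotated genes on the other strand overlap FTO, ALKBH5, YTHDF2 and all IGF2BP genes, among them RPGRIP1L at FTO, IGF2BP2-AS1 at IGF2BP2 and MALSU1 at IGF2BP3. Whether strand was used in the counting is not given in the sources used here, so reads of such pairs may have been shared.

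m6A is placed on nascent RNA by a writer complex around METTL3 and METTL14. FTO and ALKBH5 are oxygenases of the AlkB family that take the mark off, and proteins with a YTH domain bind it directly. In general terms, YTHDF1 to YTHDF3 act in the cytoplasm, with YTHDF2 linked to decay of the bound mRNA, YTHDC1 acts in the nucleus on splicing and export, and YTHDC2 is a helicase best known from meiosis. IGF2BP1 to IGF2BP3 are KH-domain proteins that bind and stabilize mRNAs, among them m6A-marked ones, and are known as oncofetal proteins that many tumours express.

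The promoters of IGF2BP2 and ALKBH5 are printed because these 2 genes carried the main differences, between lines and between arms. They are RefSeq sequences of GRCh38.p14, 250 bases before to 50 after the start annotated there, given 5′ to 3′ in the direction of the gene. Capitals mark non-overlapping matches to GGGCGG and its reverse CCGCCC, the letters of the GC box. IGF2BP2 is read from the reverse strand of chr3:185824993-185825292 and ALKBH5 from the forward strand of chr17:18183578-18183877.
IGF2BP2: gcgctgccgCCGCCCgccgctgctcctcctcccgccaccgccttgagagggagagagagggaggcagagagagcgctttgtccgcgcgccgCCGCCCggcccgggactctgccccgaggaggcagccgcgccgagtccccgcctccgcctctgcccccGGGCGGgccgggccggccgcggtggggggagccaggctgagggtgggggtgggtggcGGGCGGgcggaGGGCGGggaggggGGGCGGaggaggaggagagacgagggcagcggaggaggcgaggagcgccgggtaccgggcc
ALKBH5: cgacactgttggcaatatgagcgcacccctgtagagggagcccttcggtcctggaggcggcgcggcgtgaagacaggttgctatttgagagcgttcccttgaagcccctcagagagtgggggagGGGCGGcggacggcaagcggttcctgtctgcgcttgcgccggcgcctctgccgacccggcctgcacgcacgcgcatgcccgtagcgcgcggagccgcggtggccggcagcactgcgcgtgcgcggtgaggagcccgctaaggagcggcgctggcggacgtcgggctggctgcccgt
The IGF2BP2 window held 80.7% G and C, more than 98.2% of promoters, and 38 CpG. It had 4 forward and 2 reverse matches to the motif, counted without overlap between matches. The ALKBH5 window held 71.0% G and C, more than 81.9% of promoters, with 39 CpG and 1 forward match. On either strand, 45.0% of 35116 promoters of this length held the motif, so its presence in both sets neither gene apart.

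Levels of the 10 genes were first compared per kilobase of the canonical transcript, the only scale on which genes were set against each other. On this scale, which divides FTO by 11.57 kb and ALKBH5 by 3.16 kb, ALKBH5 was far above FTO in every group. In MCF10CA1H controls it had a mean of 1050 normalized counts per kilobase and FTO 72.4, and its share of the 2 erasers per kilobase ran from 86.3% in a MCF10A METTL3 CRISPR library to 97.7% in a MCF10AT1 control library. Among the 3 YTHDF readers, YTHDF2 held 55.5% ± 4.8 (SD, n = 3) of the sum per kilobase in MCF10A controls, YTHDF1 28.3% ± 1.5 and YTHDF3 16.2% ± 5.7. The share of YTHDF1 was 46.8% ± 9.7 in MCF10AT1 controls and 38.9% ± 2.0 in MCF10CA1H controls, and the share of YTHDF3 was 6.9% ± 4.5 and 7.3% ± 2.1. In both lines the lowest YTHDF1 share lay above the highest of MCF10A controls, 29.6%. For YTHDF3 the MCF10AT1 and MCF10CA1H controls reached 12.1% and 9.7%, and both overlapped MCF10A controls, whose lowest was 9.6%. IGF2BP2 supplied most of the IGF2BP sum, between 68.7% and 91.4% in single libraries, IGF2BP3 nearly all of the rest, and IGF2BP1 at most 2.1%.

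**Figure D1:**
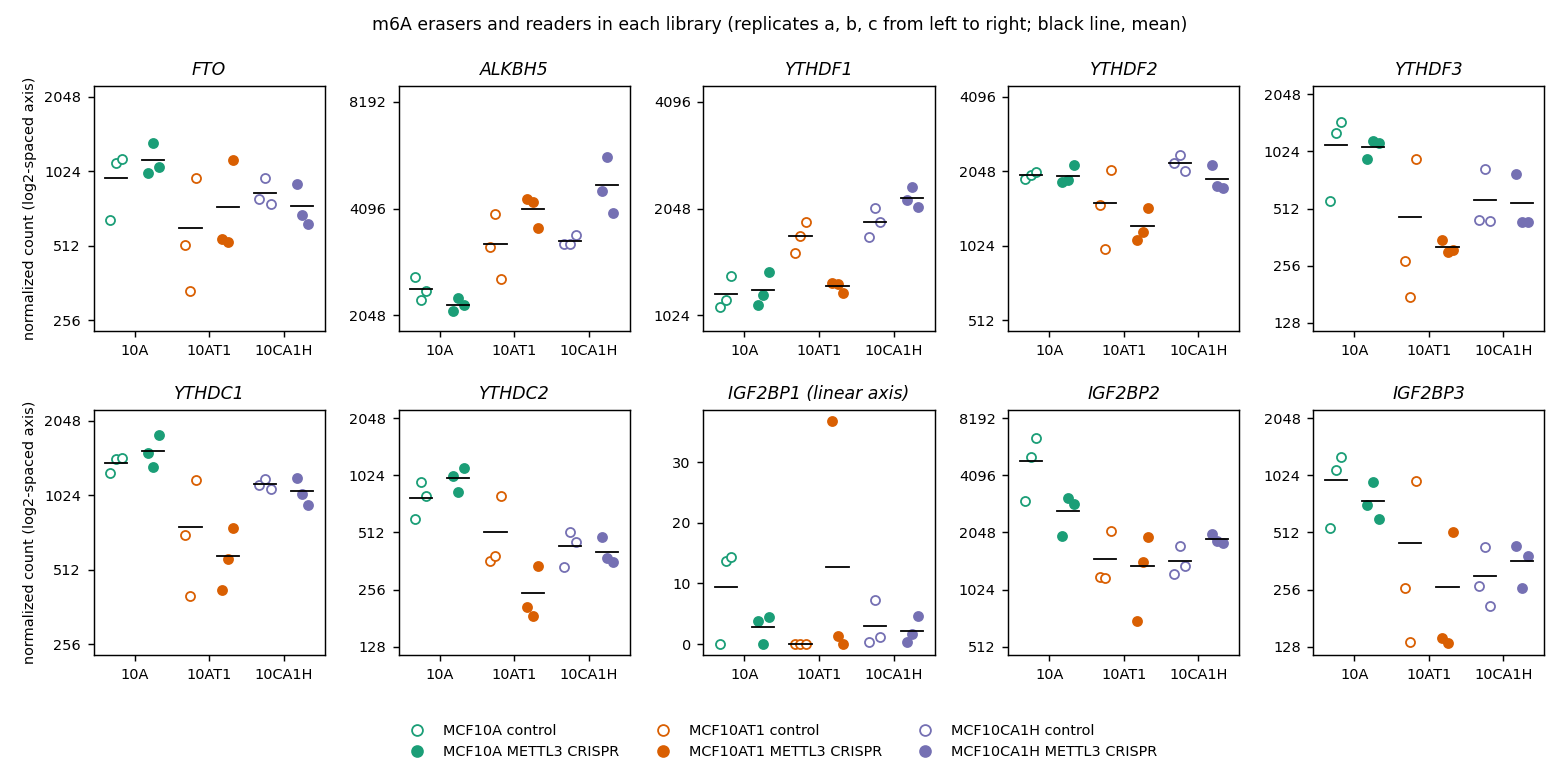
Normalized counts of the 10 genes in each of the 18 libraries, on axes spaced by log2 (linear for IGF2BP1). Open points are controls, filled points METTL3 CRISPR libraries, and black lines group means. IGF2BP2 is highest in MCF10A controls (3008 to 6461), and in MCF10AT1 controls replicate c stands above a and b for 8 of the 9 tested genes.

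IGF2BP1 was at the edge of detection. It was listed at 0 in all 3 MCF10AT1 controls, and the other groups had means between 2.213 and 12.72. The highest mean rested on 1 library, MCF10AT1 METTL3 CRISPR replicate a at 37, since replicates b and c were at 1 and 0. No fold change is given for it.

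Which of these genes changed when METTL3 was targeted was asked in each line alone. A difference was called where the adjusted p of limma, fitted over all tested genes to log2 values with 1 added to each normalized count, was under 0.05. ALKBH5 rose in MCF10CA1H, and no other call was made among the 9 tested genes in the 3 lines. In MCF10A, 0 of 9 were called, against 2.65% of all tested genes, and 1 of 9 (IGF2BP2) had an unadjusted p under 0.05. In MCF10AT1, 0 of 9 were called against 13.0% of all, with YTHDC2 alone under 0.05 unadjusted. In MCF10CA1H, 1 of 9 was called against 12.8% of all, and 2 of 9 were under 0.05 unadjusted. Over all tested genes, 2839 of 15416, 4425 of 16050 and 4230 of 15127 had an unadjusted p of limma under 0.05 in the 3 lines. The 9 genes had median log2 fold changes of 0.03, -0.25 and -0.05 in these lines, beside 0, 0.02 and -0.02 over all tested genes.

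ALKBH5 is an eraser found mainly in the nucleus. In MCF10CA1H, control libraries a, b and c held 3252, 3248 and 3441 normalized counts and METTL3 CRISPR libraries 4585, 5737 and 3983. All 3 METTL3 CRISPR libraries were above all 3 controls, and the mean was 3314 ± 110 (SD, n = 3) against 4768 ± 891. The fold was 1.42 (log2 0.51, SE 0.13, 95% interval 0.23 to 0.79, limma adjusted p 0.0261). The call depended on single libraries. The adjusted p was 0.0903, 0.0617 and 0.0543 without control a, b or c and 0.0699 without METTL3 CRISPR b, the highest library, where the log2 fold change was 0.37. It was also lost with no filter on low values (0.209), with no intensity trend (0.108) and in a fit of all 18 libraries (0.2). In MCF10AT1 the METTL3 CRISPR libraries held 4356, 4284 and 3604 and the controls 3199, 3964 and 2598, with overlap (log2 0.34, interval -0.26 to 0.95). In MCF10A the means were 2425 and 2194 (log2 -0.14, interval -0.45 to 0.16). The 3 effects were not shown to differ: MCF10CA1H minus MCF10A was 0.65 on the log2 scale, with an interaction adjusted p of 0.144.

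FTO, the first m6A demethylase described, was not called in any line. In MCF10A, MCF10AT1 and MCF10CA1H its control means were 966.5, 604.3 and 837.4 and the METTL3 CRISPR means 1135, 736.3 and 739.5. The groups overlapped in all 3 lines, and the log2 fold changes were 0.27 (interval -0.29 to 0.82), 0.33 (-0.75 to 1.40) and -0.19 (-0.54 to 0.16).

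YTHDF1 had groups that did not overlap in 2 lines, in opposite directions. In MCF10AT1, controls held 1535, 1714 and 1880 normalized counts and METTL3 CRISPR libraries 1264, 1251 and 1187. All METTL3 CRISPR values were lower, and the call was not made (log2 -0.47, SE 0.24, limma adjusted p 0.253) except in a fit of all 18 libraries (0.0216). In MCF10CA1H, controls held 1698, 2051 and 1870 and METTL3 CRISPR libraries 2160, 2363 and 2074. All METTL3 CRISPR values were higher, again without a call (log2 0.23, SE 0.10, adjusted p 0.179). In MCF10A the means were 1178 and 1205, with overlap. The difference between the effects was tested as an interaction in 1 fit of 18 libraries, and that of MCF10CA1H minus MCF10AT1 was called (0.70, SE 0.21, interval 0.26 to 1.13, adjusted p 0.026). It was 1 of 9 called in that contrast, against 18.2% of all genes, and was lost without MCF10CA1H control a or c or METTL3 CRISPR a or b (adjusted p 0.0779, 0.056, 0.0507 and 0.0685) and with no filter on low values (0.0788).

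YTHDC2, the helicase reader, was low in the METTL3 CRISPR libraries of MCF10AT1. They held 207, 186 and 342 normalized counts, and the controls 363, 387 and 793. The groups did not overlap, and the mean of 514.6 ± 242 (SD, n = 3) compared with 245.2 ± 84.6. The call was not made (log2 -1.02, SE 0.42, interval -1.97 to -0.07, limma adjusted p 0.154). With the replicate letter as a block the adjusted p was 0.0289, though the labels do not state that the letters pair libraries. In a fit of all 18 libraries it was 0.0163. In MCF10A the means went the other way, 781.7 and 992.1 (log2 0.36, adjusted p 0.414), and in MCF10CA1H they were 436.0 and 405.4. The interaction of MCF10AT1 minus MCF10A was called (-1.38, SE 0.43, interval -2.29 to -0.47, adjusted p 0.0291), 1 of 9 against 21.6% of all genes. It was lost when any of 6 libraries was left out, MCF10A control a or METTL3 CRISPR a or c (adjusted p 0.0721, 0.0584 and 0.0704), or MCF10AT1 control c or METTL3 CRISPR a or b (0.0611, 0.0613 and 0.0803). In the interaction of MCF10CA1H minus MCF10A, 0 of 9 were called by limma against 5.34% of all. ALKBH5 and IGF2BP2 were under an unadjusted p of 0.05, as were 2775 of all 15897 genes.

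YTHDF2, YTHDF3 and YTHDC1 overlapped between arms in every line. Their log2 fold changes ran from -0.29 (YTHDC1 in MCF10AT1) to 0.16 (YTHDC1 in MCF10A). YTHDF3 in MCF10AT1 had the widest interval of the 3 genes, from -1.46 to 1.17, with control libraries at 271, 175 and 938. A change of more than a doubling in either direction is inside that interval.

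IGF2BP2, the most abundant of the IGF2BP readers here, had lower METTL3 CRISPR means in MCF10A and MCF10AT1 and a higher one in MCF10CA1H, none called. In MCF10A, controls held 3008, 5147 and 6461 normalized counts and METTL3 CRISPR libraries 1968, 3104 and 2900. Control replicate a lay within the METTL3 CRISPR range, so the groups overlapped (log2 -0.83, SE 0.30, interval -1.51 to -0.15, limma adjusted p 0.187). With the replicate letter as a block the adjusted p was 0.0162 at the same fold change, and without control a the change was -1.15 (adjusted p 0.021). In MCF10CA1H the arms did not overlap, with controls at 1241, 1747 and 1365 and METTL3 CRISPR libraries at 2022, 1856 and 1804. The change of 0.40 was not called (SE 0.13, adjusted p 0.0759) and was called without control b (0.54, adjusted p 0.0158). In MCF10AT1 the arms overlapped (log2 -0.20, interval -1.18 to 0.78). The interactions between lines were not called (MCF10CA1H minus MCF10A 1.23, adjusted p 0.187). IGF2BP3 overlapped in every line, with log2 fold changes of -0.30, -0.59 and 0.29, and its interval in MCF10AT1 ran from -2.37 to 1.19.

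**Figure D2:**
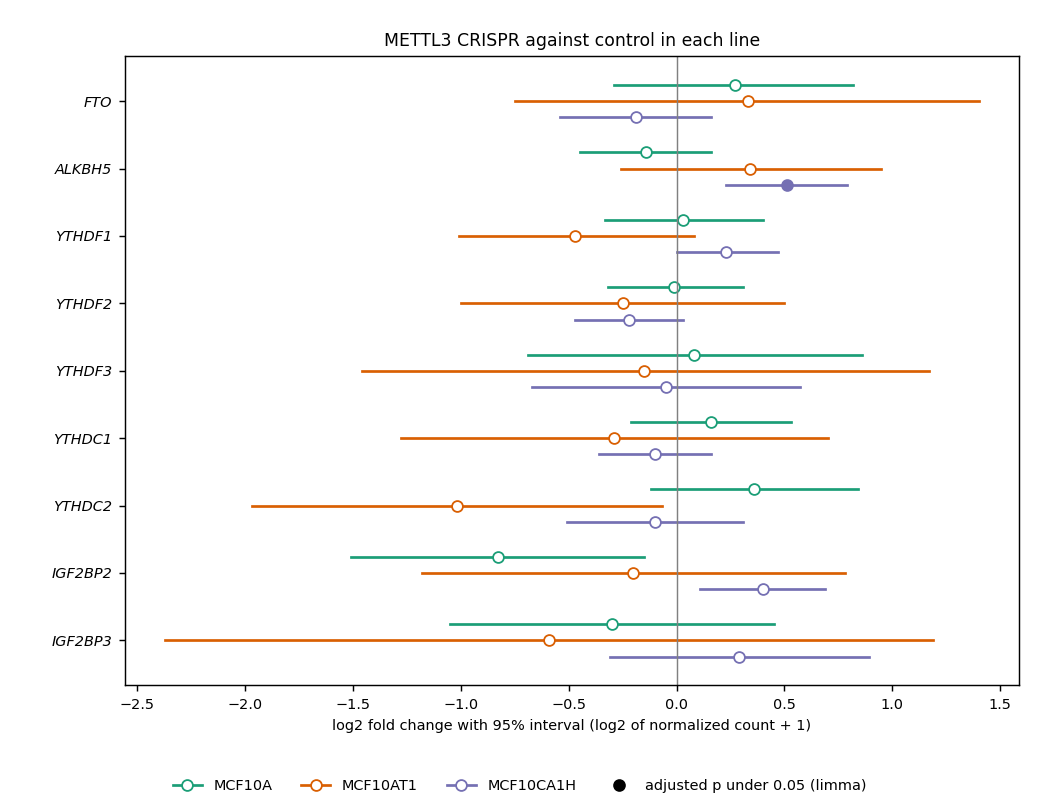
Log2 fold change of METTL3 CRISPR against control for the 9 tested genes in each line, with 95% intervals from limma; filled points were called at an adjusted p under 0.05. ALKBH5 in MCF10CA1H (0.51) is the only filled point, and the intervals of MCF10AT1 are the widest for every gene.

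The arms did not overlap for 0 of the 9 genes in MCF10A (23.9% of all tested genes), 2 in MCF10AT1, YTHDF1 and YTHDC2 (32.8% of all), and 3 in MCF10CA1H, ALKBH5, YTHDF1 and IGF2BP2 (32.7%).

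How the genes differ along the progression series was asked in the 9 control libraries. IGF2BP2 fell from MCF10A to both other lines, and YTHDF1 rose. MCF10AT1 against MCF10A had 3 of 9 called, against 28.1% of all tested genes, and MCF10CA1H against MCF10A had 2 of 9, against 37.8%. MCF10CA1H against MCF10AT1 had 0 of 9 called by limma, against 21.8%, and 1 of 9 (YTHDF2) had an unadjusted p under 0.05. In MCF10AT1 against MCF10A and in MCF10CA1H against MCF10A, 5 of 9 each had such a p. Over all 15652 tested genes it was 6960 and 7527 in these, and 5672 in MCF10CA1H against MCF10AT1. The comparisons share control libraries. The control groups did not overlap for 3, 7 and 0 of the 9 genes, beside 37.5%, 63.5% and 41.0% of all genes.

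For IGF2BP2, MCF10A controls had a mean of 4872 ± 1740 (SD, n = 3), MCF10AT1 controls 1491 ± 525 and MCF10CA1H controls 1451 ± 264. The lowest MCF10A control, 3008, was above the highest of the other lines, MCF10AT1 control c at 2097. The difference was -1.69 on the log2 scale in both comparisons (SE 0.32, fold 0.309, limma adjusted p 0.00726 for MCF10AT1 and 0.00389 for MCF10CA1H). Both calls held when any 1 library was left out, with adjusted p up to 0.0352 and 0.0208. Between MCF10AT1 and MCF10CA1H the difference was 0.00 (interval -0.73 to 0.73). In the order of all 6 groups MCF10A controls came first and MCF10A METTL3 CRISPR second, and every group overlapped the next. IGF2BP3 also had its highest mean in MCF10A controls, 971.5, against 450.0 and 302.1, with differences of -1.49 and -1.66 that were not called (adjusted p 0.101 and 0.0667).

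For YTHDF1, the control means were 1178 ± 128, 1709 ± 173 and 1873 ± 176 (SD, n = 3). Each MCF10AT1 and MCF10CA1H control was above each MCF10A control, whose highest was 1322. The differences from MCF10A were 0.54 (SE 0.18, adjusted p 0.0463) and 0.67 (SE 0.18, adjusted p 0.0153). The first was lost in 8 of 9 leave-one-out fits, the exception being MCF10AT1 control c, with adjusted p from 0.0672 to 0.143, and also under the replicate block (0.0672), with no intensity trend (0.0727) and with equal sums (0.40, 0.181), a scaling that moved the median of all genes to -0.15. The second was lost without MCF10A control b (0.0592) or MCF10CA1H control b or c (0.0673 and 0.0582). In the order of the 6 groups, MCF10CA1H METTL3 CRISPR was first and did not overlap MCF10CA1H controls, these overlapped MCF10AT1 controls, and the other 3 groups lay below without overlap with the first 3.

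YTHDF1 moved with the genes of its chromosome, which was looked at after 2 of the 3 genes most like it, MOCS3 and POLR3F, were seen to lie on chromosome 20 as well. Over 407 tested genes of chromosome 20, the median difference was 0.57 for MCF10AT1 against MCF10A controls and 0.56 for MCF10CA1H against MCF10A, the highest of 23 chromosomes in both, beside -0.02 and -0.06 over all genes. Between arms chromosome 20 had medians of -0.01, -0.29 and 0.16 in MCF10A, MCF10AT1 and MCF10CA1H, where YTHDF1 had 0.03, -0.47 and 0.23. By library, the median deviation of 416 genes of chromosome 20 from their own means was between -0.43 and -0.29 in MCF10A of either arm. It was between -0.15 and -0.09 in MCF10AT1 METTL3 CRISPR, between 0.12 and 0.31 in MCF10AT1 and MCF10CA1H controls, and between 0.41 and 0.43 in MCF10CA1H METTL3 CRISPR. Its part in the YTHDF1 differences was not tested. Chromosome medians were also set beside the other genes called between lines or arms. On chromosome 3 they were -0.30 and -0.18, beside -1.69 in both comparisons for IGF2BP2. On chromosome 4 the median was -0.49, rank 21 of 23 from the highest, beside -0.99 for YTHDC1 in MCF10AT1. It was -0.01 on chromosome 17 beside 0.51 for ALKBH5 in MCF10CA1H. For the interaction of YTHDC2 it was -0.08 on chromosome 5 beside -1.38. The part of the chromosome in these differences was not tested either.

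**Figure D3:**
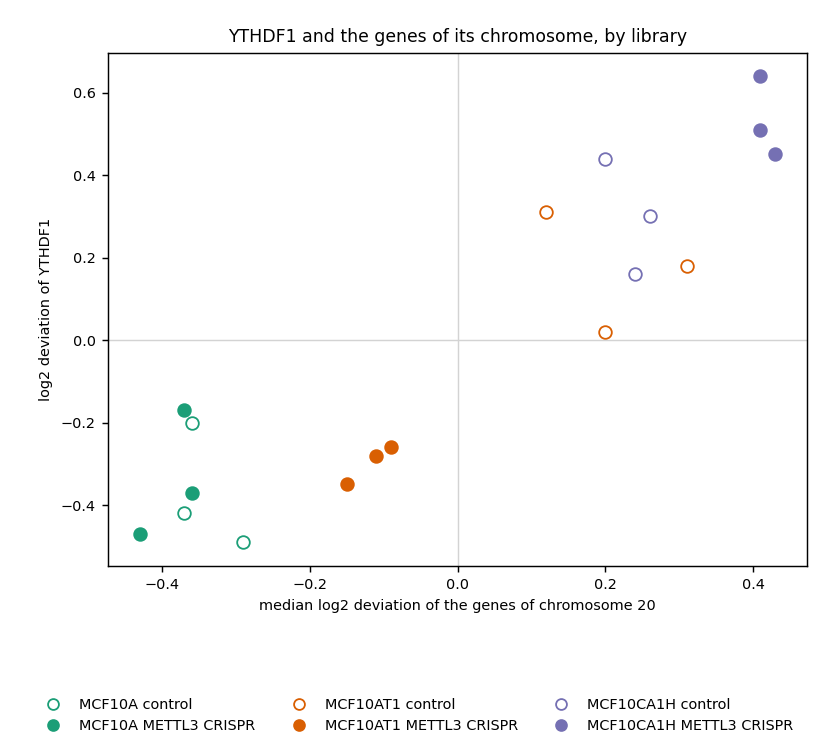
Log2 deviation of YTHDF1 from its mean over 18 libraries, against the median deviation of 416 genes of chromosome 20 in the same library. MCF10A libraries lie lower left, at -0.43 to -0.29 on the horizontal axis, and MCF10CA1H METTL3 CRISPR libraries upper right, at 0.41 to 0.43.

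YTHDC1, the nuclear reader, was lower in MCF10AT1 controls, at 705, 401 and 1177 normalized counts, than in MCF10A controls, at 1260, 1441 and 1444. The groups did not overlap (log2 -0.99, SE 0.33, adjusted p 0.0495). This call was lost in 8 of 9 leave-one-out fits (adjusted p from 0.0664 to 0.137) and under the replicate block (0.0614), a pseudocount of 0.5 (0.0504), no filter (0.138), no intensity trend (0.0706) and equal sums (0.0818). Without MCF10AT1 control b the difference was -0.60. MCF10CA1H controls held 1128, 1190 and 1084, also below all MCF10A controls (log2 -0.28, not called). In both arms YTHDC1 was highest in MCF10A and lowest in MCF10AT1.

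The other 6 tested genes were not called between control lines. YTHDF3 had means of 1101, 461.3 and 571.2, YTHDC2 of 781.7, 514.6 and 436.0, FTO of 966.5, 604.3 and 837.4, and YTHDF2 of 1973, 1521 and 2219. ALKBH5 had 2425, 3254 and 3314, and its MCF10CA1H controls lay above all MCF10A controls (log2 0.45, SE 0.19, adjusted p 0.0835). YTHDC2 and IGF2BP3 of MCF10CA1H lay below all MCF10A controls (log2 -0.84 and -1.66, adjusted p 0.0715 and 0.0667).

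**Figure D4:**
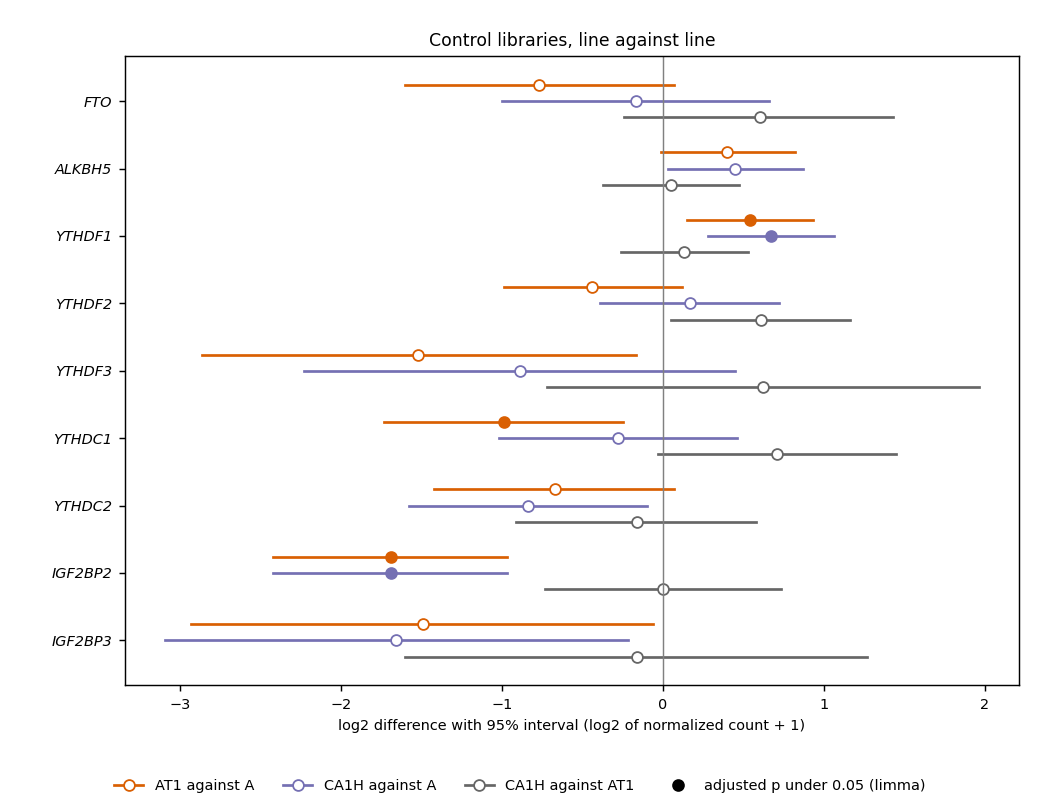
Log2 difference between control groups for the 9 tested genes, with 95% intervals from limma; filled points were called. IGF2BP2 (-1.69) and YTHDF1 (0.54 and 0.67) are filled against MCF10A for both lines, YTHDC1 (-0.99) for MCF10AT1 only, and none between MCF10CA1H and MCF10AT1.

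The libraries also differed in how long transcripts fared against short ones, and in how transcripts of low GC content fared against those of high GC content. A long-minus-short index was set for each library as the median log2 deviation of genes with canonical transcripts over 4.53 kb minus that of genes up to 2.45 kb. It was 0.22, 0.91 and 0.93 in MCF10A controls a, b and c, -0.43, -1.01 and 0.60 in MCF10AT1 controls, and -0.22, 0.04 and -0.28 in MCF10CA1H controls. MCF10A METTL3 CRISPR libraries had 0.64, 0.87 and 0.78, those of MCF10AT1 -1.04, -0.98 and -0.30, and those of MCF10CA1H -0.10, -0.28 and -0.29. The same contrast of low against high GC content was 0.42, 0.95 and 0.91 in MCF10A controls, -0.22, -0.80 and 0.36 in MCF10AT1 controls and -0.24, 0.01 and -0.28 in MCF10CA1H controls, so length and GC content cannot be told apart here. Of the genes, FTO (percentile 97.6 of length), YTHDC2 (82.9) and YTHDC1 (82.4) are long, YTHDF3, YTHDC2, YTHDC1 and IGF2BP3 are low in GC content (percentiles 9.9, 17.4, 18.6 and 19.6), and ALKBH5 is at 46.3 and 77.5. In MCF10AT1 controls 8 of the 9 genes were highest in replicate c, the library of the highest index, as were 39.6% of all genes, and in MCF10A controls 8 of 9 were lowest in replicate a, as were 39.5%. IGF2BP3 spread furthest, 7.06-fold between the highest and lowest MCF10AT1 control, where the median was 2.18-fold over the 9 genes and 2.04-fold over all genes.

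Calls between controls depended on single libraries, for these genes and for all genes. Without MCF10AT1 control c, 9 of 9 were called between MCF10AT1 and MCF10A controls, beside 52.1% of all tested genes. In the same fit 5 were called between MCF10CA1H and MCF10A (48.8% of all) and 4 (FTO, YTHDF2, YTHDF3 and YTHDC1) between MCF10CA1H and MCF10AT1 (35.8%). Without MCF10AT1 control b, ALKBH5 and IGF2BP3 were called between MCF10CA1H and MCF10A (0.0287 and 0.0274), and without MCF10A control a, YTHDF3 between MCF10AT1 and MCF10A (0.0463). With the index as a covariate, IGF2BP2 still fell from MCF10A to MCF10AT1 (-0.99, adjusted p 0.0255) and to MCF10CA1H (-1.08, 0.00515), and YTHDF1 still rose (0.69, 0.0257, and 0.80, 0.00387). YTHDC1 was then at -0.23 (adjusted p 0.489), and FTO turned from -0.17 to 0.65 between MCF10CA1H and MCF10A (0.00628). The index differs by line, so line and index cannot be told apart in these comparisons. Within lines, the covariate left ALKBH5 in MCF10CA1H at 0.50 (adjusted p 0.0364) and brought calls for IGF2BP2 in MCF10A (-0.95, 0.00949) and MCF10CA1H (0.48, 0.0117) and for FTO in MCF10AT1 (0.84, 0.0305), where the 2 arms also differ in index.

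**Figure D5:**
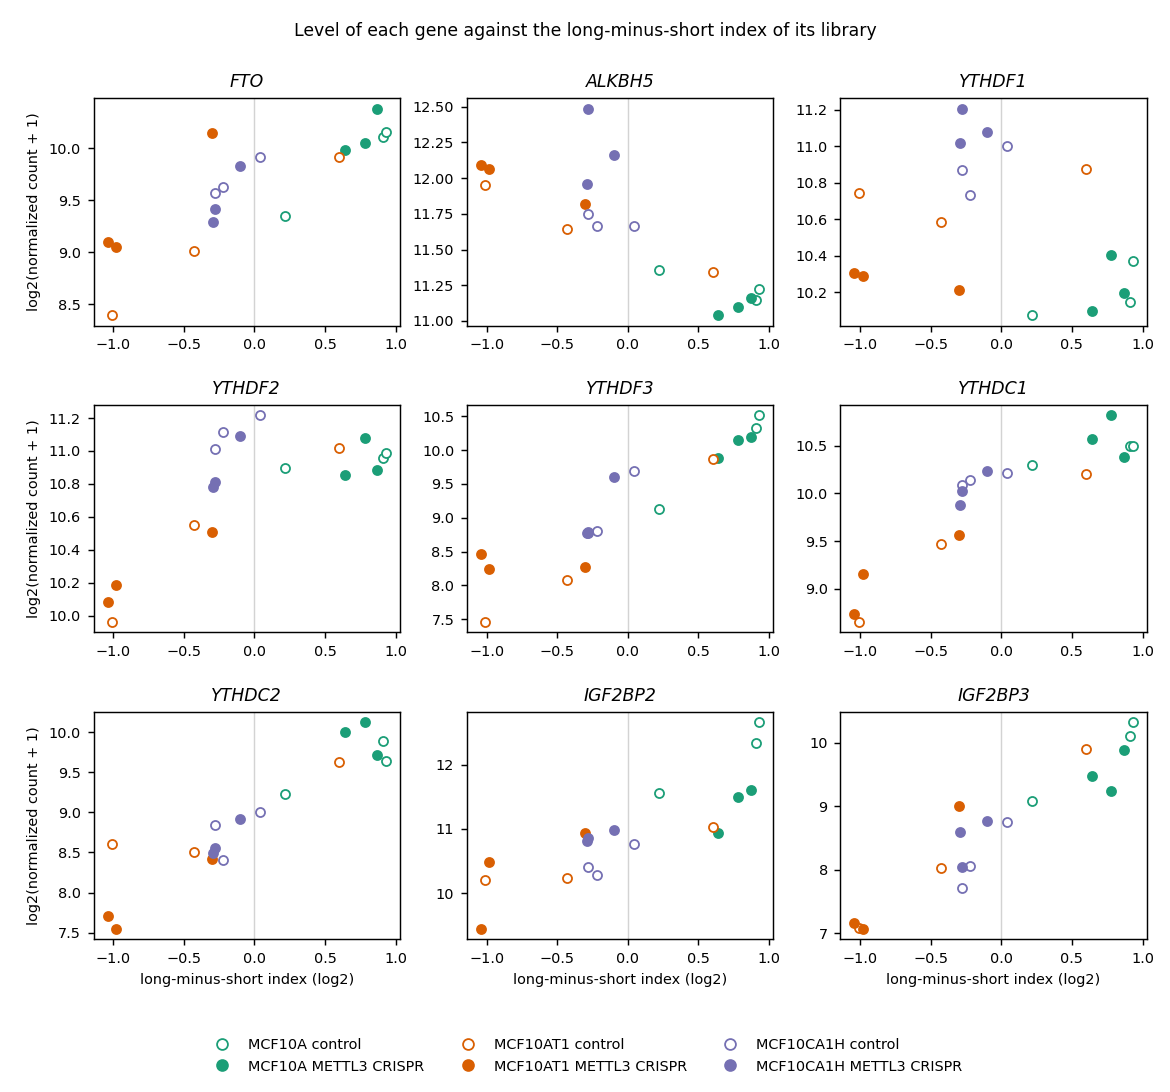
Log2 of the normalized count plus 1 of the 9 tested genes against the long-minus-short index of the library, coloured by line and filled by arm. Most genes lie higher at a high index and ALKBH5 lies lower, and the MCF10A libraries sit at an index of 0.22 or more.

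Over the 18 libraries, which share lines and this index, the 9 genes moved in 2 directions. As a description, Pearson's r of log2 levels was highest between YTHDF2 and YTHDC1 (0.91). IGF2BP3 ran with YTHDF3 (0.87), IGF2BP2 (0.86), YTHDC2 (0.85) and FTO (0.84), while ALKBH5 ran against YTHDC2 (-0.83) and IGF2BP3 (-0.75) and with YTHDF1 (0.60). Of 12447 genes compared, those most like IGF2BP2 were PARP4, OCRL and MAP4K4 (0.98, 0.97 and 0.97) and those most like ALKBH5 were YIPF2, CREB3 and OGFR (0.97, 0.95 and 0.95). PKD2, RAPGEF1 and RDH10 were most like FTO (0.95 each), GOLIM4, SLC39A6 and FZD6 most like YTHDC1 (0.98 each), and LANCL1 and KIDINS220 most like YTHDC2 (0.97 and 0.96). RAD21, U2SURP and TLE4 were nearest to YTHDF2 (0.97, 0.96 and 0.96), and CGGBP1, FAR1 and KAT6A to YTHDF3 (0.97, 0.97 and 0.96). For YTHDF1 the third was TDP1, and the 3 had 0.95, 0.93 and 0.92 in the order MOCS3, TDP1 and POLR3F. IGF2BP3 was nearest to a gene without a symbol (ENSG00000283761), POGZ and MAPK8 (0.96 each).

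Other genes of the m6A pathway were seldom called between arms. Their log2 fold changes ran from -0.36 to 0.49 in MCF10A, from -1.07 to 1.01 in MCF10AT1 and from -0.49 to 0.80 in MCF10CA1H, where 2.65%, 13.0% and 12.8% of all tested genes were called. An unadjusted p of limma under 0.05 was found for 2839 of 15416, 4425 of 16050 and 4230 of 15127 genes in these lines. Of 13 m6A writer genes, all tested, METTL3 in MCF10CA1H was the 1 called, and in the other lines limma called 0, with 0 under an unadjusted p of 0.05 as well. No call was made among 9 other m6A-linked RNA-binding proteins or 7 partners of mRNA decay in any line by limma, with 0, 2 and 1 and with 1, 0 and 0 under an unadjusted p of 0.05. The arms of 5 of the 9 RNA-binding proteins did not overlap in MCF10AT1, beside 32.8% of all tested genes. The interaction of MCF10AT1 minus MCF10A was called for 3 of the 9, PRRC2A (1.15), FXR2 (0.86) and LRPPRC (-1.29), beside 21.6% of all genes, and that of MCF10CA1H minus MCF10AT1 for 2, PRRC2A (-1.05) and ELAVL1 (-0.59), beside 18.2%. Of 7 other AlkB homologues, ALKBH6 rose in MCF10CA1H (log2 0.80, SE 0.13, adjusted p 0.00396), from a mean of 338.1 to 591.6, and 0 were called, or under an unadjusted p of 0.05, in the other lines.

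Between MCF10AT1 and MCF10A controls limma called 28.1% of all tested genes. The share was 37.8% between MCF10CA1H and MCF10A and 21.8% between MCF10CA1H and MCF10AT1. Of the 13 writer genes, 2 were higher in MCF10AT1 than in MCF10A. These were METTL16, which methylates U6 RNA, by 0.98, and PCIF1, which acts on capped ends, by 0.95. Another 2, both partners of METTL3, were lower (WTAP by -0.72 and ZC3H13 by -1.49). In MCF10CA1H against MCF10A, 4 were higher and 0 lower (TRMT112 1.37, METTL16 1.16, METTL3 0.87 and PCIF1 0.85). Of the 9 RNA-binding proteins, ELAVL1, HNRNPA2B1 and HNRNPC were higher in MCF10CA1H than in MCF10A (0.98, 1.07 and 0.77) and than in MCF10AT1 (1.12, 1.09 and 0.81), and LRPPRC, a mitochondrial RNA-binding protein, was lower (-0.82 and -1.19). POP1 and UPF1 of the 7 decay partners were higher in MCF10CA1H against both (1.23 and 1.52, and 0.68 and 0.63), and XRN1, the 5′ to 3′ exonuclease, was lower than in MCF10A (-1.77). ALKBH4 was higher in both lines than in MCF10A (1.20 and 1.03), ALKBH1 and ALKBH2 in MCF10CA1H (0.60 and 0.85).

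Of 10 transcripts known to be bound by IGF2BP proteins or oncofetal like them, 7 were tested, since IGF2, LIN28A and LIN28B were too low. In MCF10A the METTL3 CRISPR libraries were lower in HMGA1 (log2 -1.24, adjusted p 0.0168), a chromatin protein, and ACTB (-1.04, 0.0413), beta-actin. In MCF10AT1 the noncoding RNA H19 rose from a mean of 12.16 to 1539 (6.95, SE 0.83, adjusted p 0.00113), beside the marker shift of that group. In MCF10CA1H HMGA2 rose (0.81, 0.00107) and MYC fell (-0.49, 0.00658), the direction of IGF2BP2 there being 0.40 without a call. Between controls HMGA2 was lower in MCF10AT1 and MCF10CA1H than in MCF10A (-2.80 and -1.75), as IGF2BP2 was (-1.69 in both). H19 was higher in MCF10CA1H than in MCF10A and MCF10AT1 (2.39 and 3.42), and HMGA2 was higher in MCF10CA1H than in MCF10AT1 (1.05).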

How the data were processed

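RNA was sequenced from 18 human cell line libraries, 6 groups of 3, grouped by the labels. Per the labels and the study's methods, stranded libraries were made from ribosomal RNA-depleted total RNA, while the labels also name polyA RNA. Which of these holds is not known here. Reads were assigned by the authors to hg38 transcripts with kallisto 0.46.1, and tximport gene sums were scaled in DESeq2 1.26.0 (R 4.1.1). The deposited signal is therefore a normalized count, already scaled between libraries, with 2 decimals. Low values lay at whole multiples of a library's commonest low value in only 12.2% to 42.5% of cases, so reads were not recovered, no count test was run and depth is unknown. Of 60579 rows, 24646 without values were left out.

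Differences were fitted with limma 3.58.1 (lmFit, eBayes with trend, two-sided) in R 4.3.3 to log2(normalized count + 1). A gene was tested if its mean was 10 or more over those libraries. Fold changes on this scale understate changes of low genes. The Benjamini-Hochberg method was applied over all tested genes, with a threshold of 0.05. Each line was fitted alone for METTL3 CRISPR against control, the 9 controls together for the lines, and the 18 libraries together for interactions. The fitting code was tried for some of the comparisons on simulated independent libraries with the same dispersion for every gene. That does not show how the fits behave at the spreads and index differences of these libraries. Python 3.11.15, pandas 2.3.3 and matplotlib 3.10.9 were used for the rest. The long-minus-short index used 10633 protein-coding genes with a mean of at least 100 and GENCODE 44 lengths. Symbols and sequences came from reference tables, which held promoters for 8 of the 10 genes. All 10 genes were named in every comparison. Of the other lists only called genes were named, and for each tested gene the 3 of highest Pearson r, except that 2 genes these rules name are not reported here. The genes and lists were chosen with earlier results of these data known.

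The replicate letters come from the sample titles. Deviations of same-lettered libraries from their group means correlated at 0.22, 0.20 and 0.12 in MCF10A (letters a, b and c) and at 0.11, 0.29 and 0.48 in MCF10AT1, all above 0.1, and at -0.01, 0.02 and 0.05 in MCF10CA1H. The labels do not state that the letters pair libraries, and the main fits did not use them. The replicate block, which treats same-lettered libraries as matched, was run only as an alternative, in every comparison. Correlations between libraries of different letters were not computed, so a pairing is not shown. Alternatives were another pseudocount (0.5 or 5), another filter (none, or a mean of 50), no trend, equal sums, median-of-ratios scaling, the replicate block, a fit of 18 or 12 libraries, an adjusted p under 0.01, each library left out and, chosen after seeing the data, the index as a covariate.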

Additional observations from a re-analysis of the deposited data

Results flagged for a closer look

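For 2 of the 9 tested genes the METTL3 CRISPR effect differed between lines by an interaction test, 1 in each of 2 contrasts in which 21.6% and 18.2% of all genes were called. Both calls were lost without any 1 of several libraries. YTHDC2 had an effect of -1.02 in MCF10AT1 and 0.36 in MCF10A, a difference of -1.38 (SE 0.43, limma adjusted p 0.0291). Libraries behind the MCF10AT1 effect differ in the long-minus-short index. Controls a, b and c had an index of -0.43, -1.01 and 0.60, with YTHDC2 at 363, 387 and 793. METTL3 CRISPR libraries a, b and c had -1.04, -0.98 and -0.30, with YTHDC2 at 207, 186 and 342. With the index as a covariate the difference was -0.94 (adjusted p 0.0177), and in a fit of the 12 libraries of these 2 lines alone it was not called (adjusted p 0.0748).

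YTHDF1 had an effect of 0.23 in MCF10CA1H and -0.47 in MCF10AT1, a difference of 0.70 (SE 0.21, limma adjusted p 0.026). The median of the tested genes of chromosome 20, where YTHDF1 lies, was 0.50 in the same contrast, beside -0.01 over all genes. The part of the chromosome in the difference was not tested.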

How the results depend on the processing

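The number of the 9 genes called moved with several choices, and the cause was not tested. When single libraries were dropped it ran from 0 to 1 in MCF10A, from 0 to 1 in MCF10CA1H, from 1 to 9 for MCF10AT1 against MCF10A controls, from 1 to 5 for MCF10CA1H against MCF10A, from 0 to 4 for MCF10CA1H against MCF10AT1, from 0 to 2 for the interaction of MCF10AT1 minus MCF10A and from 0 to 1 for that of MCF10CA1H minus MCF10AT1. It stayed at 0 in MCF10AT1 and for the interaction of MCF10CA1H minus MCF10A. In those fits the share of all genes called also moved, in MCF10A from 0.337% to 9.2%, in MCF10CA1H from 7.2% to 11.8%, between controls from 10.6% to 52.1%, 23.4% to 48.8% and 10.2% to 35.8%, and for the interactions of MCF10AT1 minus MCF10A and MCF10CA1H minus MCF10AT1 from 17.6% to 32% and 13.4% to 26.5%. With the replicate letter as a block it was 1 in MCF10A, 1 in MCF10AT1 and 1 for MCF10AT1 against MCF10A controls (7.6%, 24.5% and 23.5% of all genes), and the block changed no other count by over 1.5 times. In MCF10CA1H, where same-lettered libraries did not deviate together, the block left the count at 1. The fit of 18 libraries gave 2 in MCF10AT1, 0 in MCF10CA1H, 5 for MCF10CA1H against MCF10A controls and 1 for MCF10CA1H against MCF10AT1 (32.4%, 1.56%, 44.6% and 28.6% of all). The fit of 12 libraries gave 0 for the interaction of MCF10AT1 minus MCF10A and 2 for MCF10CA1H minus MCF10A (14.4% and 14.3%). Without the filter the count was 0 in MCF10CA1H and 0 for the interaction of MCF10CA1H minus MCF10AT1 (1.69% and 7.57% of all genes). Without the trend it was 0 in MCF10CA1H and 1 for MCF10AT1 against MCF10A controls (7.42% and 24.6%). Equal sums gave 1 for the latter and 2 for the interaction of MCF10AT1 minus MCF10A (23.6% and 21.3%). They moved the median of all genes by up to 0.26. At an adjusted p of limma under 0.01 the count was 0 in MCF10CA1H, 1 for MCF10AT1 and 1 for MCF10CA1H against MCF10A controls (5.28%, 7.83% and 19.4%). It was also 0 for the interactions of MCF10AT1 minus MCF10A and MCF10CA1H minus MCF10AT1, with 2049 and 1597 of 15897 genes called. The index covariate gave 1, 1 and 2 in MCF10A, MCF10AT1 and MCF10CA1H, 4 for MCF10CA1H against MCF10A controls, 3 for MCF10CA1H against MCF10AT1, and 3, 2 and 2 for the interactions (10.6%, 21.4%, 15.1%, 39.6%, 43.8%, 30.2%, 13.1% and 26.8% of all genes). Both pseudocounts, a mean of at least 50 and median-of-ratios scaling left every count within 1.5 times. The adjusted p of ALKBH5 in MCF10CA1H ran from 0.0218 to 0.209 over 10 alternatives and that of IGF2BP2 in MCF10A from 0.00949 to 0.5.

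No called difference of these genes reversed under the alternatives run. Uncalled ones did, some of them large, such as YTHDF3 (-1.52), IGF2BP3 (-1.49) and FTO (-0.77) between MCF10AT1 and MCF10A controls. Equal sums turned YTHDF2 in MCF10A to 0.08. The index covariate turned YTHDF3 in MCF10A to -0.06, YTHDF2, YTHDF3, YTHDC1, IGF2BP2 and IGF2BP3 in MCF10AT1 to 0.05, 0.44, 0.17, 0.16 and 0.36, and YTHDF3 and YTHDC2 in MCF10CA1H to 0.19 and 0.00. Between controls it turned FTO, YTHDF2, YTHDF3, YTHDC2 and IGF2BP3 to 0.17, 0.08, 0.07, 0.02 and 0.22 for MCF10AT1 against MCF10A, FTO, YTHDF3 and YTHDC1 to 0.65, 0.48 and 0.38 for MCF10CA1H against MCF10A, and IGF2BP2 to -0.09 for MCF10CA1H against MCF10AT1. Leaving out 1 library moved YTHDF1, YTHDF2 and YTHDF3 in MCF10A between -0.05 and 0.12, -0.08 and 0.04, and -0.35 and 0.35. In MCF10AT1 it moved FTO between -0.03 and 0.73, YTHDF2 between -0.52 and 0.00, YTHDF3 between -0.66 and 0.55, YTHDC1 between -0.69 and 0.09, IGF2BP2 between -0.52 and 0.22 and IGF2BP3 between -1.22 and 0.19. In MCF10CA1H it moved YTHDF3 between -0.32 and 0.25 and YTHDC2 between -0.27 and 0.03. For MCF10CA1H against MCF10AT1 controls it moved ALKBH5, YTHDC2, IGF2BP2 and IGF2BP3 between -0.10 and 0.20, -0.37 and 0.20, -0.14 and 0.27, and -0.79 and 0.62. Without read counts, no limit of detection is given for IGF2BP1.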
